A study of Mus musculus with 10 samples.

Results

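Nucleophosmin (NPM1) was compared on the chromatin of 2 kinds of mouse macrophage, each represented by 1 CUT&Tag library out of 10 libraries in the series. One library came from wild-type cardiac macrophages of infarcted hearts at day 3 after the operation. The other came from wild-type bone marrow-derived macrophages (BMDM) that had matured for 7 days in 50 ng/ml M-CSF and were then exposed for 12 hours to interleukin-4 (IL-4) at 20 ng/ml. Both were chosen by their labels, as the infarct and the IL-4 library made with the NPM1 antibody, and no measured value entered that choice. The first list held 79893 peaks and the second 104514. A gene-end peak is a peak that reaches within 1 kb of either end of a protein-coding gene, and 12768 of 21887 genes had one in at least 1 of the lists.

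The series also mapped NPM1 in cardiac macrophages of sham-operated hearts at day 3 and in untreated BMDM, and H3K4me3, the trimethyl mark of histone H3 lysine 4, in infarct cardiac macrophages. All of these 5 libraries were wild type. The other libraries, among them Npm1 knockouts and H3K4me3 in IL-4 BMDM, were not used here. The labels give the heart and the bone marrow as the sources and do not give the number of animals per library, how cardiac macrophages were sorted, or their purity. The cells therefore differ in tissue, culture and stimulus at once, and these cannot be told apart.

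NPM1 is an abundant nucleolar phosphoprotein that moves between nucleolus, nucleoplasm and cytoplasm and acts in ribosome assembly, histone chaperoning and the ARF and p53 response. IL-4 acts through its receptor, JAK kinases and STAT6 to give macrophages an alternative, repair-associated state, marked by genes such as Arg1, Retnla, Chil3 and Mrc1. CUT&Tag ties a transposase to an antibody, so that DNA is cut where the antibody sits. Open DNA can also be cut without the antibody, and no control library was used here.

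Each cell type rests on 1 library, so nothing below could be checked on a replicate and p-values are not given. Depth was read from the peaks: the most frequent background pileup, the number of fragments expected by chance at a position, was 3.03 in the infarct and 4.18 in the IL-4 library, against 1.29 in sham, 1.31 in untreated BMDM and 2.92 in H3K4me3. A deeper library gives a higher −log10 q, the authors' measure of how far a peak stands above background after correction for many positions, at the same enrichment. This value was therefore ranked within its own list, and a gene without a peak is one where nothing was called at the depth of that library. In libraries made from many cells, fewer cells with NPM1 at a site and less NPM1 per cell cannot be told apart.

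The promoters below are single examples of starts under an NPM1 peak from each class of gene, and they do not stand for the class. Each runs from 250 bases before to 50 after a RefSeq start (GRCm38.p6, the assembly behind mm10), 5′ to 3′ on the gene's strand. Capitals mark letters that match one of 11 motifs searched on both strands: SP/KLF GGGCGG, ETS CCGGAAG, NRF1 GCGCATGC, YY1 AAGATGGCG, NF-Y CCAAT, E-box CACGTG, CRE TGACGTCA, AP-1 TGANTCA, PU.1 GAGGAAGT, the TATAAA box, and a STAT site, in which TTC is followed after 4 bases by GAA. Matches to different motifs may share bases. Tbc1d7 (chr13:43171452-43171751, minus strand) and Zfp677 (chr17:21383498-21383797, plus) had an NPM1 gene-end peak in infarct macrophages only. Zbtb41 (chr1:139422133-139422432, plus) and Mrc1 (chr2:14229164-14229463, plus) had one in IL-4 BMDM only. Brpf1 (chr6:113306887-113307186, plus), Hdgfl2 (chr17:56079381-56079680, plus) and Tsc1 (chr2:28640983-28641282, plus) had one in both. Mrc1 and Tsc1 were added after their values were seen. Each window had at least 150 bases under the peak, and as many as 300 for Mrc1, Hdgfl2 and Tsc1.
Tbc1d7: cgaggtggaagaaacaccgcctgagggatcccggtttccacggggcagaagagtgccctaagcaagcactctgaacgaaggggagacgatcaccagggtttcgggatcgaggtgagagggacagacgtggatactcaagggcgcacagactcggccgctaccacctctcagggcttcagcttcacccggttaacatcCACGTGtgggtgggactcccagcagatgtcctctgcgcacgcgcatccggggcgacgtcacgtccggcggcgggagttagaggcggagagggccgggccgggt
Zfp677: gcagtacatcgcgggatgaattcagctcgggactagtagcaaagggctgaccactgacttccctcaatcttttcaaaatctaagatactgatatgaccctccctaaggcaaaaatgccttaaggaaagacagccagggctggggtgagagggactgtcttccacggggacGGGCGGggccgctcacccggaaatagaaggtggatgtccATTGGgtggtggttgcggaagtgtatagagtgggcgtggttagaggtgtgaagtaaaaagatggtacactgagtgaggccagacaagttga
Zbtb41: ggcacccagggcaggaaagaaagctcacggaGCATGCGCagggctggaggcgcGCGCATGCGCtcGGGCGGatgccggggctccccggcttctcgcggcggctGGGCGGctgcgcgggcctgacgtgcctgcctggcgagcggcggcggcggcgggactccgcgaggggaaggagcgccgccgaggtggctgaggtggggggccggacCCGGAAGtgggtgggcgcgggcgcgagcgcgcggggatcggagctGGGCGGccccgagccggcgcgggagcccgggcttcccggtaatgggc
Mrc1: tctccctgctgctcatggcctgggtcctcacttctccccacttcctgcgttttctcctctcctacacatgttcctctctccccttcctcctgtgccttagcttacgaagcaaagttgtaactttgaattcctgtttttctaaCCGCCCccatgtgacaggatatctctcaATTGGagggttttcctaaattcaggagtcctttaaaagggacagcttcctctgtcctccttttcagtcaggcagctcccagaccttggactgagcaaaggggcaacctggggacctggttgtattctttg
Brpf1: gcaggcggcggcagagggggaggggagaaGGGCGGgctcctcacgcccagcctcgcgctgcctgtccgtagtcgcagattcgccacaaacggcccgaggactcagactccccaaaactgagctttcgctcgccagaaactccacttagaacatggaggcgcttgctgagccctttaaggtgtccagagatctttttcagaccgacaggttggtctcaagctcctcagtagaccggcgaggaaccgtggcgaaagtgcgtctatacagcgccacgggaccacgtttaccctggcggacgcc
Hdgfl2: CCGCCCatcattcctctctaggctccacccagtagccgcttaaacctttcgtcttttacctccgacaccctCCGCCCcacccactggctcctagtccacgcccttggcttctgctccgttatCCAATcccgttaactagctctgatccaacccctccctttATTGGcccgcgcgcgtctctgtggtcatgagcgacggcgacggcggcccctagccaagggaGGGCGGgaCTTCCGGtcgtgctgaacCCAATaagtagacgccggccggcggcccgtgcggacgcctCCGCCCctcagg
Tsc1: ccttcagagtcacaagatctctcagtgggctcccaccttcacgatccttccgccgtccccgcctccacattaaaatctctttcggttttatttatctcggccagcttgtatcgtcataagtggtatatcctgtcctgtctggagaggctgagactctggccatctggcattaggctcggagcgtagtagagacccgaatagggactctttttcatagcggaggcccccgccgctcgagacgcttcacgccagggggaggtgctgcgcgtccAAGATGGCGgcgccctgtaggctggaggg

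The promoters shown differed in CG dinucleotides. Zbtb41 held 45 in its 300 bases, Hdgfl2 28, Tbc1d7 27, Brpf1 25 and Tsc1 20, while Zfp677 held 10 and Mrc1 3. The Mrc1 promoter, which drives the mannose receptor CD206, had an observed to expected CG ratio of 0.167, against 1.02 at Zbtb41 and 0.978 at Hdgfl2.

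NPM1 sat at much the same gene ends in both kinds of macrophage. A gene-end peak was called for 11072 genes in infarct macrophages (50.6% of all genes) and for 11214 genes in IL-4 BMDM (51.2%). Of these, 9518 genes were in both lists (43.5% of all genes), which is 86.0% of the infarct list and 84.9% of the IL-4 list. Another 1554 genes (7.10%) were in the infarct list only and 1696 (7.75%) in the IL-4 list only, and 9119 were in neither. With the IL-4 list cut to the length of the infarct list the order turned, to 2031 infarct-only and 1132 IL-4-only genes. The split into shared and unshared genes followed peak strength. Genes in both lists had a median −log10 q of 7.23 in infarct and 8.14 in IL-4 macrophages and a median width of 607 bp in each. Genes in 1 list only had median widths of 278.5 bp (infarct only) and 280.5 bp (IL-4 only) and a median −log10 q of 1.78 and 2.12. Strong peaks, of −log10 q 5 or above, stood at 6035 of the shared genes in infarct and 6324 in IL-4 macrophages, but at 65 of the infarct-only and 103 of the IL-4-only genes. Over all genes, 27.9% had 1 in the infarct list and 29.4% in the IL-4 list.

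How often a gene was shared rose with its strength in either list. Infarct genes with a −log10 q under 1 had an IL-4 gene-end peak in 49.4% of cases, those from 3 to 5 in 86.0%, from 5 to 10 in 97.6% and from 10 to 20 in 99.8%, and all 163 of 163 genes at 50 or more had one. IL-4 genes had an infarct peak in 36.1%, 81.7%, 96.3% and 99.6% of cases at the same steps, and in 237 of 238 at 50 or more.

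The single exception was Xkrx, an X-linked gene of the XK-related family, and it shows how the window's edge makes some unshared genes. Its IL-4 peak had a −log10 q of 132, and an infarct region with a −log10 q of 64.1 overlapped that peak but stopped short of the 1 kb window. Likewise Rgs17, a regulator of G protein signalling, counted as infarct only with a −log10 q of 34.5, although an overlapping IL-4 region reached 35.2. Such a counterpart was present for 45 infarct-only and 58 IL-4-only genes, and among unshared genes with a −log10 q of 10 or more for 5 of 6 and 11 of 14. Jmjd8 (46.7 in IL-4, 33.9 in infarct), Polg, the mitochondrial DNA polymerase (29.5 and 13.5), and Sin3a, a corepressor scaffold (29.0 and 24.7), were among the latter. The strongest unshared genes with no counterpart were Tank, an adaptor of TRAF signalling, at 11.0 in infarct macrophages and Stx8, a syntaxin of endosomes, at 24.0 in IL-4 BMDM; both were picked after their values were seen.

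Among genes in both lists the order of peaks was alike. Ranked from 1, the highest −log10 q, to 9518, the ranks had a Spearman correlation of 0.84 over the 9518 genes, which share each library's depth and the openness of promoters. The median difference in rank was 891 places, or 9.36% of the ranking, and 73 genes differed by more than 50% of it. The 100 highest genes of the lists had 71 in common (71.0% of the infarct and, with ties, 71.7% of the IL-4 genes), and the 1000 highest had 737 (73.7%). The strongest peaks of the gene overlapped in 8505 genes (89.4%), with a median of 67 bp between summits where they did.

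**Figure D1:**
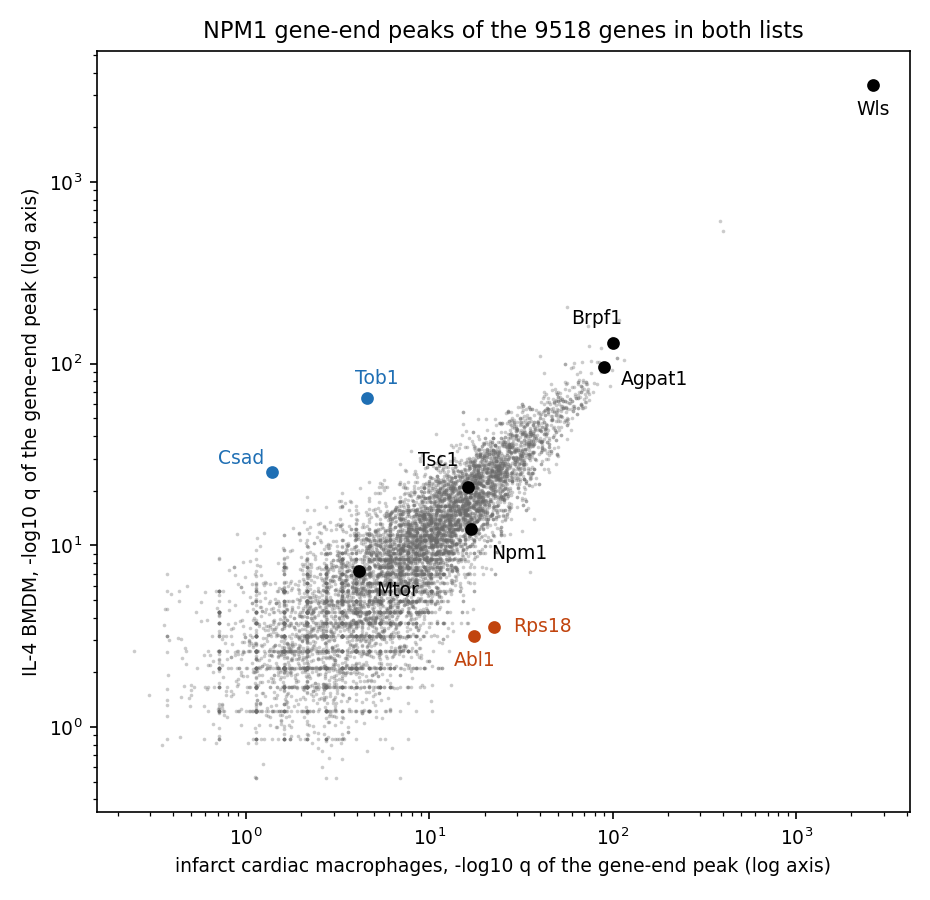
Each point is 1 of the 9518 genes with an NPM1 gene-end peak in both lists, plotted by the −log10 q of its strongest peak in infarct cardiac macrophages (x, log axis) and in IL-4 BMDM (y, log axis). Most genes follow 1 band, Wls stands at the top right, Tob1 and Csad lie far above the band and Rps18 and Abl1 below it. The IL-4 summits of Tob1 and Csad lie outside the 1 kb window.

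Peaks sat on transcription starts in both cell types. Of the genes with a listed start, 83.3% of 8917 infarct genes and 81.5% of 9090 IL-4 genes had their strongest peak reaching within 1 kb of it. Among the peaks that reached a start, the median summit was 24 bp upstream in infarct and 34 bp upstream in IL-4 macrophages. The middle 50% of these summits ran from -163 to 113 bp and from -167 to 108 bp. Genes in both lists had the peak at a start more often (86.2% in infarct, 85.5% in IL-4) than infarct-only (64.2%) or IL-4-only genes (58.5%).

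**Figure D2:**
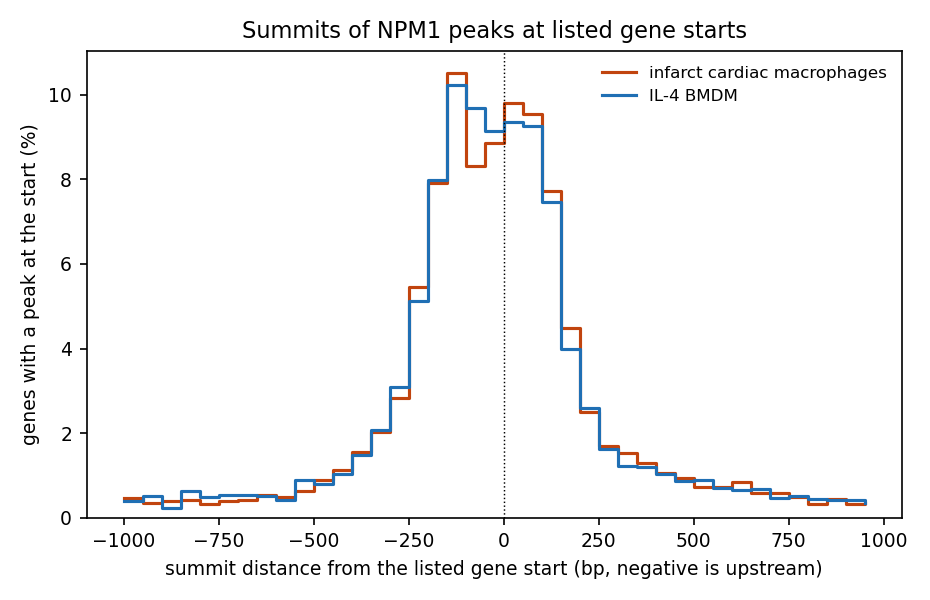
Lines give, for genes whose summit lies within 1 kb of a listed start, the share of genes per 50 bp step of distance from that start (x, bp, negative is upstream), for infarct cardiac macrophages and IL-4 BMDM. Both lines rise to the same broad top between about -200 and 150 bp and fall away on either side.

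The genes that ranked highest in both lists were of 2 kinds. Wls, a carrier of Wnt proteins, ranked 1 in both with −log10 q of 2619 and 3401, and its peak was as steep in every other library: the fold over background was 42.4 in infarct, 42.7 in IL-4, 41.6 in sham, 42.7 in untreated BMDM and 41.0 in H3K4me3. Lars2, a mitochondrial leucyl-tRNA synthetase, had folds of 27.9, 28.4, 15.3, 23.6 and 15.1 in the same order. Asmt, the last enzyme of melatonin synthesis, had 15.8, 16.2, 15.6, 15.4 and 15.4. Sspn, a member of the dystrophin complex, had 15.6, 19.6, 14.4, 11.6 and 13.2. The peaks of Wls and Lars2 lay at the end opposite their listed start.

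The other top genes were high in infarct and IL-4 macrophages and low or without a call in sham hearts and untreated BMDM, where the background was lower. Brpf1, a subunit of MOZ histone acetyltransferase complexes, had a −log10 q of 99.8 in infarct and 131 in IL-4 macrophages, 0.863 in sham, 6.03 in untreated BMDM and 23.2 for H3K4me3. B4galt5, a galactosyltransferase of lactosylceramide synthesis, had 98.4 and 138, no sham peak and 2.03 in untreated BMDM. Wee1, the kinase that holds cells before mitosis, had 115 and 105. Hdgfl2, a reader of histone methylation, had 106 and 107. Fzr1, an activator of the anaphase-promoting complex, had 86.4 and 122. Agpat1, an acyltransferase of phospholipid synthesis, had 90.1 and 96.3. Ranks of these 6 genes stayed between 4 and 23.5 in both lists.

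The largest differences in rank between overlapping peaks are given next. Tob1, an antiproliferative regulator of mRNA decay, went from rank 6346.5 with a −log10 q of 4.58 in infarct macrophages to rank 95 with 64.6 in IL-4 BMDM, and its peak was 516 bp wide in the first and 1893 bp in the second, with summits 1008 bp apart. Csad, an enzyme of taurine synthesis, went from 8988 to 1138.5 (−log10 q 1.39 and 25.4), with summits 717 bp apart. In both genes the infarct summit lay inside the 1 kb window and the IL-4 summit outside it. Counted by summits in the window, both had an infarct peak and no IL-4 peak. Their rank differences therefore depend on the window's edge, and regions beyond the window were not ranked. Cndp1, a carnosine dipeptidase, went from 8251 to 1957, Zfp991 from 9331 to 3477 and Clca3b from 8251 to 2438.5. Cndp1 also had a peak of 11.3 in untreated BMDM, and Clca3b had peaks in all 5 libraries. In the other direction, Rps18, a ribosomal protein of the small subunit, ranked 1140 in infarct (−log10 q 22.5) and 7496.5 in IL-4 BMDM (3.54), with summits 5 bp apart. Abl1, a tyrosine kinase, ranked 1754 and 7741 with the same summit. Dstyk (3495.5 and 9203), Nelfb, a subunit of the negative elongation factor (2982 and 8637), and Nit2, an omega-amidase (3064 and 8637), followed. None of these 5 genes had a gene-end peak in sham or untreated macrophages, and all had H3K4me3 in infarct macrophages, with −log10 q from 10.01 to 26.7. Of all genes in both lists, 14.3% had a sham peak, 9.24% an untreated BMDM peak and 94.0% H3K4me3.

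The infarct-only genes with no IL-4 peak inside them or within 5 kb numbered 402 of 1554. The 10 strongest named genes among them had −log10 q from 4.72 to 7.66. Ccnh, the cyclin of the CDK-activating kinase, and Zfp729b reached 7.66 each, Tmx1, an oxidoreductase of the endoplasmic reticulum, and Zfp677 reached 6.87, and Tbc1d7, a subunit of the TSC complex that restrains mTORC1, reached 6.11 with a fold of 4.71. Cog2, a Golgi tether, Crnkl1, a splicing factor, Srfbp1, a partner of serum response factor, Oxtr, the oxytocin receptor, and Ankrd23, an ankyrin repeat protein of muscle, lay between 5.49 and 4.72. H3K4me3 was called at 9 of these 10 genes, from 0.600 at Ankrd23 to 28.9 at Tbc1d7, and not at Oxtr. It was called at 61.7% of all infarct-only genes and 57.1% of all genes. Zfp729b alone had a sham peak (2.06), and none had an untreated BMDM peak, beside 12.8% and 5.41% of all infarct-only genes.

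The IL-4-only genes with no infarct peak inside them or within 5 kb numbered 551 of 1696, and the 9 strong ones named here were a different mix. Krtap6-2, a hair keratin-associated protein, had a −log10 q of 14.0 in IL-4 BMDM, 6.32 in sham and 2.03 in untreated BMDM. Crisp4, an epididymal secretory protein, had 9.13, with 5.37 in sham and 3.47 in untreated BMDM. Scin, which severs actin filaments, had 7.65, Zbtb41, a zinc finger protein, 7.65, and Mup19, a major urinary protein, 7.13. Ifitm7, of the interferon-induced transmembrane family, had 6.94, Rerg, a Ras-like GTPase, 6.46, and Gpr34, a lysophosphatidylserine receptor, and Gpr75 each had 6.25. Of the 9, H3K4me3 in infarct macrophages was called at 4, Krtap6-2 (2.37), Scin (4.90), Zbtb41 (21.1) and Gpr75 (2.97). A sham peak was called at 3 and an untreated BMDM peak at 4. Over all IL-4-only genes the shares were 49.9% for H3K4me3, 15.6% for sham and 9.20% for untreated BMDM.

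H3K4me3, the mark of active promoters, was taken from infarct macrophages, and the series' H3K4me3 library of IL-4 BMDM was not used here. A gene-end peak of the mark was called for 57.1% of all genes. For genes in both NPM1 lists the share was 94.0% (95% Wilson interval 93.5 to 94.5%, for counting error over genes only). The share was 61.7% for infarct-only genes (59.3 to 64.1%), 49.9% for IL-4-only genes (47.5 to 52.3%) and 19.2% for genes in neither. With only peaks of −log10 q 5 or above kept, the classes were formed anew, with 5311 genes in both, 789 infarct only and 1116 IL-4 only. H3K4me3 was called at 99.2%, 95.3% and 91.2% of these. Only 65 of the 789 and 103 of the 1116 had no gene-end peak of any strength in the other list. For the classes as first formed, a sham NPM1 peak was present at 14.3%, 12.8%, 15.6% and 6.10%, beside 10.9% of all genes. An untreated BMDM peak, called at 6.71% of all genes, was present at 9.24%, 5.41%, 9.20% and 3.84%.

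**Figure D3:**
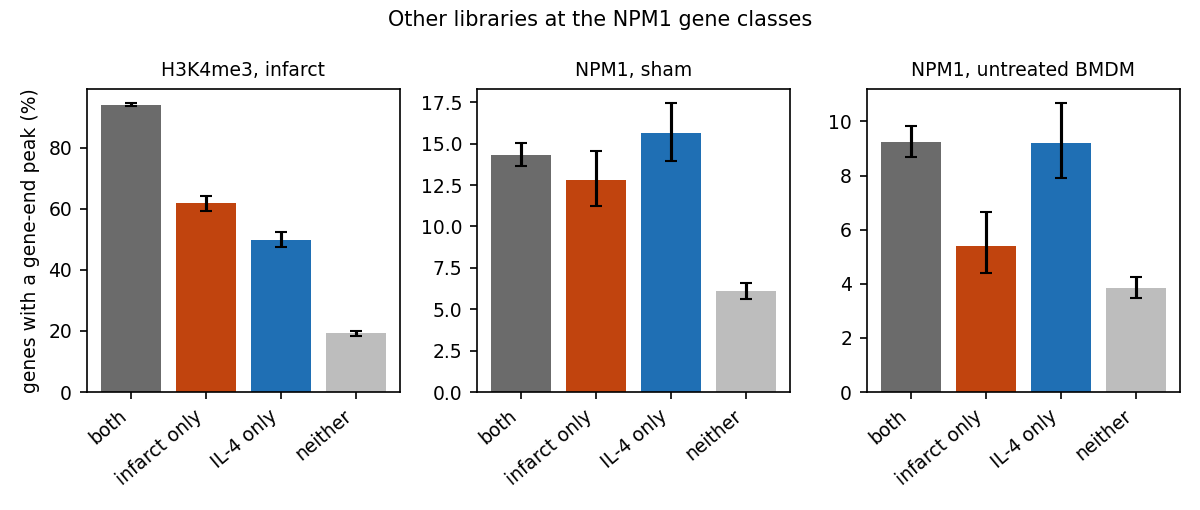
Bars give the percentage of genes of each class (both NPM1 lists, infarct only, IL-4 only, neither) with a gene-end peak of H3K4me3 in infarct cardiac macrophages, of NPM1 in sham hearts and of NPM1 in untreated BMDM, with 95% Wilson intervals and a separate y axis per panel. H3K4me3 falls from 94.0% to 19.2% across the classes, and untreated BMDM peaks are at 9.20% of IL-4-only and 5.41% of infarct-only genes.

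Promoter letters went the same way over the genes with a listed start (7730 in both lists, 1187 infarct only, 1360 IL-4 only, 7215 in neither). Median GC content was 61.3%, 57.0%, 54.7% and 49.0%, and the median observed to expected CG ratio was 0.776, 0.547, 0.406 and 0.271. The SP/KLF letters were in 65.8%, 47.2%, 40% and 26.5% of the promoters, beside 46.3% of all. The ETS letters were in 18.7%, 12.1%, 9.41% and 5.09% (11.9% of all), and the NRF1 letters in 5.61%, 3.62%, 3.16% and 1.54% (3.61% of all). The AP-1 letters ran the other way, with 4.57%, 6.15%, 7.35% and 9.88% (7.08% of all), as did the TATAAA box with 6.95%, 10.5%, 12.7% and 20.8% (13.3% of all). STAT letters were in 5.05%, 5.73%, 6.62% and 7.86% (6.37% of all), and PU.1 letters in 3.34%, 2.78%, 3.46% and 2.99% (3.17% of all). A match is a string of letters and does not show a bound factor.

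For pathways, 28 gene lists were counted against the background of 43.5% in both, 7.10% infarct only and 7.75% IL-4 only. The IL-4 receptor and response genes were in both lists in 15 of 30 cases, infarct only in 1 and IL-4 only in 3. Among the 15 shared genes the median rank was 5643.5 in infarct and 3256.5 in IL-4 macrophages, with 11 of 15 higher in IL-4, whereas over all shared genes the medians were 4759.5 and 4759.75. Socs1, a feedback inhibitor of cytokine receptors, had a −log10 q of 12.2 in infarct and 27.1 in IL-4 BMDM, Irf4, a transcription factor of alternative activation, 3.33 and 13.1, and Tgm2, a transglutaminase, 3.10 and 12.98. Pparg, a nuclear receptor, and the chemokine Ccl17 ranked higher in infarct (2497 and 5643.5) than in IL-4 BMDM (3256.5 and 7087). Other lists leaned the same way, with 16 of 24 shared NF-kB and inflammatory genes and 13 of 20 shared efferocytosis genes ranked higher in IL-4 BMDM. The mannose receptor Mrc1 was IL-4 only (9.10, fold 4.86), with a 695 bp peak over its start, as were the chitinase-like Chil3 (4.94) and the kinase Jak3 (2.30). The lectin Mgl2 was infarct only (1.13). Arg1, Retnla, Ccl22, Ccl24, Alox15 and 6 further genes had a gene-end peak in neither, and Il4ra ranked 5722 in infarct and 7047 in IL-4 BMDM. An untreated BMDM gene-end peak was present at 0 of the 30 genes, beside 6.71% of all genes, and also at 0 of 24 interferon and 0 of 27 efferocytosis genes.

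Genes of cardiac macrophage subsets were in both lists in 13 of 27 cases, with median ranks of 6952.5 in infarct and 4697.5 in IL-4 macrophages. IL-4 only were Mrc1, Chil3, the tetraspanin Cd9 (3.36), the folate receptor Folr2 (2.42) and osteopontin, Spp1 (1.23). Infarct only were Plac8, a marker of recruited monocytes (7.45), and fibronectin, Fn1 (2.14). The antigen-presenting gene H2-Ab1 ranked 8111 and 3454, Trem2, a lipid receptor, 4850 and 2663, and Gpnmb, a glycoprotein of lipid-laden macrophages, 3141 and 5376. Timd4, Lyve1 and Ccr2, which mark resident and recruited cardiac macrophages, were in neither list.

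Of macrophage identity genes 24 of 27 were in both lists and 1, Cd63, was infarct only. This count cannot check the labelled cell type, because 20 of 21 heat shock and 30 of 32 ribosomal protein genes were also in both. Of the 24 shared genes, 12 ranked higher in infarct macrophages and 12 in IL-4 BMDM, with median ranks of 4890.5 and 4567.75. Csf2ra, a cytokine receptor chain, had a −log10 q of 14.1 in infarct and 33.1 in IL-4 BMDM, and Cebpa, a myeloid transcription factor, 21.0 and 36.3. Of efferocytosis and repair genes 20 of 27 were in both. Mertk, a receptor for dying cells, ranked 1238 in infarct (21.6) and 5068 in IL-4 BMDM (7.44), while Il10, an anti-inflammatory cytokine, ranked 3147 (11.2) and 929 (28.0).

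Markers of other heart and blood cells were in both lists less often than all genes, of which 43.5% were. In both lists were 2 of 20 cardiomyocyte genes, 1 of 14 fibroblast genes (Wt1), 4 of 13 endothelial genes, 3 of 12 genes of neutrophils, 3 of 13 of T and NK lymphocytes and 0 of 9 of B lymphocytes. Infarct only were 3, 1, 2, 1, 2 and 1 of them, and IL-4 only 5, 3, 3, 1, 3 and 1. Over all genes 7.10% were infarct only and 7.75% IL-4 only. Of the 6 marker lists, 10, 9, 4, 7, 5 and 7 genes had a gene-end peak in neither NPM1 list, beside 41.7% of all genes. Myh6, Tnnt2, Col1a1, Pdgfra, Vwf and Ly6g, picked from these marker lists, were among them. In infarct macrophages 0, 1, 2, 1, 1 and 0 genes of the 6 marker lists had a strong peak, with a −log10 q of at least 5. Genes of tissues such as testis and liver, taken as silent, were in both in 5 of 18 cases; the protamine Prm1 had 15.8 in infarct and 42.6 in IL-4 BMDM.

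Inflammatory and stress lists differed in how much was shared. Of NF-kB and inflammatory genes 24 of 32 were in both, with Tlr2 (5.80) and Ptgs2 (1.61) infarct only and Il1b (3.31) IL-4 only. Malt1, a paracaspase of NF-kB signalling, ranked 10 and 29, Relb, an NF-kB subunit, 67 and 46, and Tnf 1822 and 374.5. Of immediate early and AP-1 genes 21 of 23 were in both, led by Egr1 (56.0 and 66.4), with Fosl1 infarct only (1.68). Hypoxia genes were shared in 18 of 22 cases, with Mxi1 infarct only (3.41), and interferon genes in 16 of 24, with Ifih1 (3.33) and Ifit2 (1.61) infarct only and Oas1a (4.20) and Ifit3 (2.12) IL-4 only. Heat shock genes were shared in 20 of 21 cases, with Hspa8, a constitutive chaperone, at ranks 25 and 32.

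The study's title concerns macrophage metabolism, and the mTORC1 and TSC genes were in both lists in 31 of 35 cases. Tsc1, the scaffold of the TSC complex, had a fold of 6.17 and a −log10 q of 16.1 in infarct macrophages and 5.93 and 20.9 in IL-4 BMDM, with both summits 104 bp upstream of its start. Mtor, the kinase, had 3.68 and 4.15 in infarct and 4.33 and 7.26 in IL-4 BMDM. Infarct only were the TSC subunits Tbc1d7 (6.11) and Tsc2 (2.05) and Lamtor5 (1.61), of the lysosomal Ragulator complex, and 0 genes of the list were IL-4 only. With only peaks of −log10 q 5 or above the order turned, to 2 infarct-only and 3 IL-4-only genes, Mtor among the latter. The Tsc2 peak was 200 bp wide and lay at the end opposite the listed start, and Tsc2 was not infarct only in a window of 0.5 or 2.5 kb, at listed starts alone, or with stronger peaks by q or fold. Neither list had an NPM1 peak at the ends of Kdm5b, an H3K4 demethylase, where H3K4me3 was called at 7.35. Npm1 itself had 16.8 in infarct (rank 1884) and 12.3 in IL-4 BMDM (rank 3318).

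Metabolic genes were mostly in both lists: 16 of 21 of glycolysis, 26 of 30 of the TCA cycle and oxidative phosphorylation, 16 of 21 of fatty acid oxidation and 22 of 24 of the lysosome. Infarct only were Ldhb, a lactate dehydrogenase subunit (4.66), and Slc25a20, the mitochondrial acylcarnitine carrier (3.31). Genes in the IL-4 list only included Dlst (3.67), Cox5a (2.06), Hadh (3.16), Ppara (0.855) and Eno2 (1.55). Fh1, fumarate hydratase, ranked 5929 in infarct and 1835.5 in IL-4 BMDM, and Sdhc, a subunit of succinate dehydrogenase, 8763.5 and 4941. Acadvl, which starts the oxidation of very long fatty acids, ranked 3370 and 7609.

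Nucleolar and chromatin lists follow. Of ribosome biogenesis genes 23 of 26 were in both, with Nop10 IL-4 only (1.48), and nucleolin, Ncl, ranked 699 and 235. Of ribosomal protein genes 30 of 32 were in both, with Rpl22 IL-4 only (4.94). Histone chaperone genes were in both in 18 of 22 cases, with Supt16, a FACT subunit (5.97), and Atrx (1.13) infarct only, and Daxx, a chaperone of histone H3.3, at ranks 75.5 and 89.5. H3K4 methylation enzymes were in both in 13 of 16 cases and in 1 list only in 0. The p53 and ARF genes were in both in 11 of 18 cases. Infarct only were Ei24 (3.33), Cdkn2a, which encodes ARF (2.14), and Usp7 (1.07), and IL-4 only was Pmaip1, the NOXA gene (6.94). Mdm2, the p53 ubiquitin ligase, ranked 550 in infarct and 3376 in IL-4 BMDM. Proliferation genes were in both in 18 of 20 cases, with Top2a infarct only (1.99), and housekeeping genes in 16 of 20, with Actb infarct only (5.39).

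**Figure D4:**
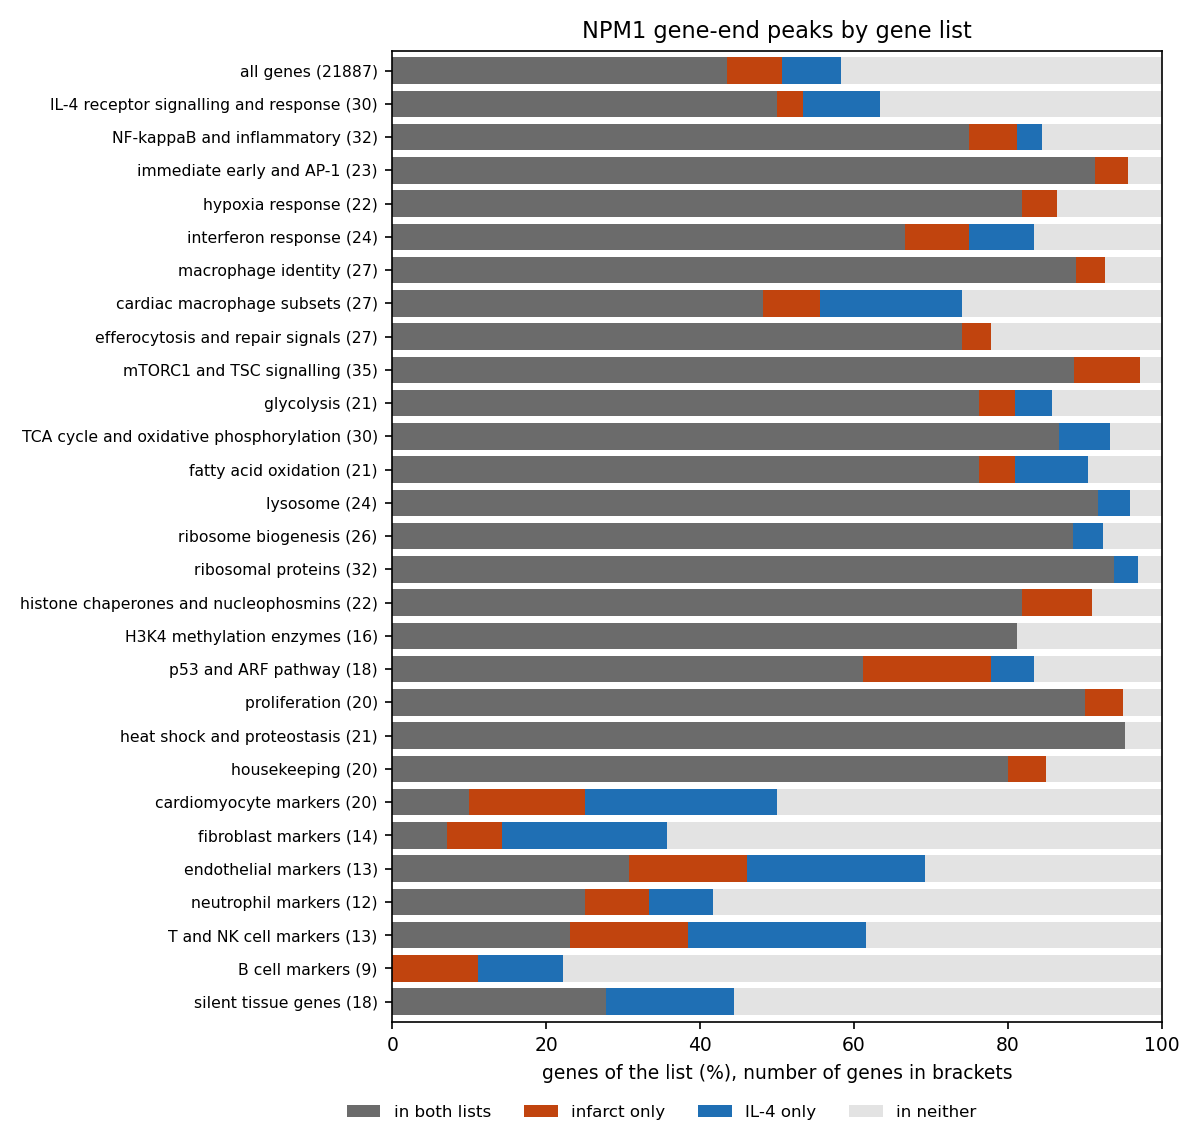
Each bar splits a gene list (number of genes in brackets) into the percentage with an NPM1 gene-end peak in both lists, in infarct cardiac macrophages only, in IL-4 BMDM only and in neither, with all genes in the top bar. Macrophage identity and ribosomal protein lists are mostly in both, while cardiomyocyte, fibroblast and B cell markers are mostly in neither or in 1 list.

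Away from gene ends the lists differed more than at gene ends. Of all regions, 51.1% of the infarct and 38.7% of the IL-4 regions had an overlapping region in the other list, and at equal list lengths 45.9% and 45.2%. At gene ends the shares were 75.1% and 73.8%, elsewhere in genes 44.5% and 38.6%, and outside genes 50.0% and 31.0%. This order was also present within a step of strength. The IL-4 library was the deeper one, so that a given −log10 q stood for a lower enrichment there. The part of depth in the IL-4 shares was not tested. With a −log10 q from 5 to 10 in their own list, infarct regions were shared in 96.5% of cases at gene ends, 93.0% elsewhere in genes and 93.7% outside genes, and IL-4 regions in 95.1%, 72.5% and 59.1%. Unshared regions with a −log10 q of 5 or more numbered 459 in infarct macrophages and 4472 in IL-4 BMDM, of which 168 and 2880 lay outside genes.

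**Figure D5:**
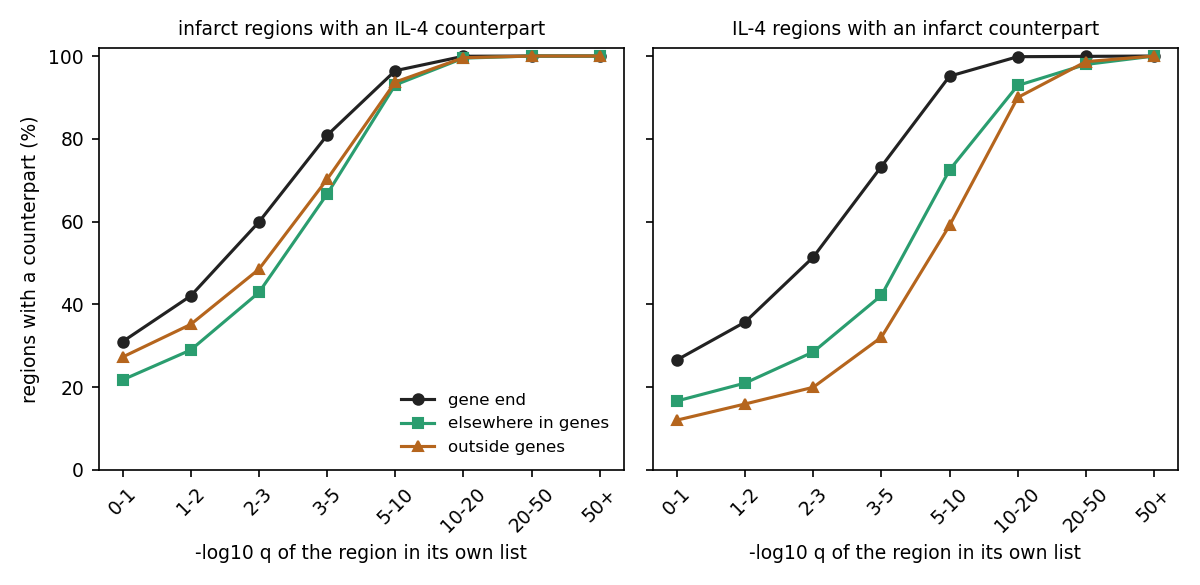
Points give the percentage of regions that overlap a region of the other list, by the region's −log10 q in its own list (x), at gene ends, elsewhere in genes and outside genes, for infarct regions (left) and IL-4 regions (right). At a −log10 q from 5 to 10 the 3 infarct lines lie between 93.0% and 96.5%, and the IL-4 lines spread from 95.1% at gene ends to 59.1% outside genes.

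The untreated BMDM library shared part of the IL-4 regions. Of unshared regions outside genes, an untreated BMDM peak overlapped 29.8% of the IL-4 and 4.23% of the infarct regions, while a sham peak overlapped 16.6% and 11.2%. On autosomes alone the first pair was 28.2% and 4.15%. H3K4me3 in infarct macrophages was called at 10.8% of the unshared IL-4 and 14.4% of the unshared infarct regions outside genes, beside 49.8% and 49.2% of the shared ones. The IL-4 list held 2641 regions on chromosome X and 1890 on Y, against 840 and 118 in the infarct list, and 4.66% of its Y regions were shared. Untreated BMDM had 3575 and 4145 such regions and sham 1091 and 913. The sex of the animals is not in the labels, and its part in these counts was not tested.

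The strongest unshared regions away from gene ends were single sites. In IL-4 BMDM, a region 6744 bp from Tnfrsf14, a receptor of the TNF family (chr4:154935095-154935633, mm10), had a fold of 7.80 and a −log10 q of 35.3, with 4.62 in sham and 5.13 in untreated BMDM. Regions inside Eml4, which binds microtubules (chr17:83389155-83389522), and Hivep1, a zinc finger factor (chr13:42109335-42109651), reached 31.3 and 29.8, with 12.7 and 3.60 in sham. H3K4me3 in infarct macrophages was called at both, with 2.37 and 4.97. In infarct macrophages, the top regions lay 3688 bp from A530032D15Rik (chr1:85113863-85114108, 12.2), inside Fbxl13 (chr5:21536111-21536522, 11.9) and inside Zfp704 (chr3:9515538-9515899, 11.4). The A530032D15Rik region had a fold of 3.29 and was also called in sham (5.12) and untreated BMDM (2.39). The Fbxl13 region was also called in sham (6.32), untreated BMDM (11.2) and H3K4me3 (12.0), and the Zfp704 region in none of these. The 3 strongest shared regions were called in all 5 libraries. Their nearest genes were Mrgprd at 17123 bp, Gm45871 at 8667 bp and Lrrc4c at 1035117 bp. Folds ran from 26.7 to 28.4 at the first, from 31.5 to 34.0 at the second and from 10.9 to 15.3 at the third.

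Off-end regions near genes, a count chosen after the data were seen, were also more frequent with IL-4. With a −log10 q of 5 or more and within 50 kb of the gene, such a region was present for 43.8% of genes in infarct and 61.3% in IL-4 macrophages, where the list held 23285 such strong peaks of any place against 13908. More of them were called in IL-4 BMDM at 39.8% of genes and more in infarct macrophages at 7.46%. The corresponding shares were 59.3% and 11.1% for macrophage identity genes, and 40% and 13.3% for IL-4 response genes, the first of these close to the share of all genes. Over the 28 gene lists, the share with more in IL-4 BMDM ran from 19.0% for fatty acid oxidation to 64.3% for fibroblast markers. For endothelial markers it was 61.5%, so the value of macrophage identity genes was not particular to them. Ccl24, an eosinophil chemokine, had 6 in IL-4 BMDM, 0 in infarct macrophages, 2 in sham and 0 in untreated BMDM. Retnla, the resistin-like protein of IL-4-treated macrophages, had 2 in IL-4 BMDM and 0 in the other NPM1 libraries. Mrc1 had 4 in IL-4 BMDM, 1 in infarct, 1 in sham and 3 in untreated BMDM. The 4 IL-4 response genes with more in infarct macrophages were Clec10a (3 against 1 in IL-4 BMDM), Ptgs1 (2 against 1), Irs2 (3 against 2) and Tgm2 (8 against 7). These genes were picked after their values were seen.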

How the data were processed

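Per the labels' protocols, NPM1 and H3K4me3 libraries were made with a hyperactive transposase CUT&Tag kit. The submitters' processing notes name mm10, MACS2 2.2.7.1, Bowtie2, deepTools and bcl2fastq 2.17; the settings were not given in the sources used. The authors deposited 1 narrowPeak list per library, each peak with a score, a fold enrichment ratio, and the −log10 of its p-value and of its q-value. These are the authors' own values per peak.

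Peaks were joined with 21887 protein-coding genes of the GRCm38.p6 RefSeq table, of which 17492 had a listed start in the RefSeq promoter table. Exons, introns and UTRs were not resolved. The strongest gene-end peak by −log10 q stood for a gene, and regions counted as shared when at least 1 bp overlapped. A whole-number pileup and a background were recovered from the fold and −log10 p to within 0.001 at 99.9% of summits of both lists. Of their peaks, 27.6% (infarct) and 15.9% (IL-4) had a q above 0.05.

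Members, gene lists and rules were chosen with earlier results of these data known. Named genes are Npm1, Kdm5b, Tsc1, Tsc2 and Mtor, the 10 strongest of each class (for 1 list only, without a peak of the other list within 5 kb), passing over predicted, olfactory and vomeronasal genes, the 5 largest rank differences each way, and list members, some picked after their values were seen. Some genes that these rules name are not reported here. With 1 library per group, samples were not tested. Joins were tested on simulated lists. Python 3.11.15, numpy 2.4.6, pandas 2.3.3, scipy 1.17.1 and matplotlib 3.10.9 were used.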

Additional observations from a re-analysis of the deposited data

Results flagged for a closer look

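Between the cell types, 2 results moved in opposite directions from their own reference library, a difference that was not tested. Olfactory receptor genes, the odorant receptors of the nose, had a gene-end peak in 42 of 1110 cases in infarct macrophages and 64 in sham, a difference of -22, and in 46 cases in IL-4 BMDM and 35 in untreated BMDM, a difference of 11. Over all genes the shares with a gene-end peak were 50.6% in infarct and 10.9% in sham, and 51.2% in IL-4 and 6.71% in untreated BMDM. Scin had a peak in sham and not in infarct macrophages (-1) and in IL-4 but not in untreated BMDM (1). The backgrounds of the compared libraries differed, 3.03 against 1.29 and 4.18 against 1.31.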

How the results depend on the processing

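With 1 library per group no value has a replicate check, and q and the number of calls move with depth. No paired analysis was possible because each group has 1 library. Scaling the IL-4 list to the infarct background kept 103817 of its 104514 peaks and moved no count beyond 1.5 times, but it lowers only called peaks. Of 448 values of 45 named genes under the other settings, 394 kept their class, 54 changed it and 0 reversed, and of 168 list counts 115 stayed within 1.5 times, the other 53 all under −log10 q of 5 or more.

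Keeping only peaks with a −log10 q of 5 or more in both lists gave 5311 genes in both, 789 infarct only and 1116 IL-4 only, region shares of 81.3% and 48.5%, a rank correlation of 0.78 and overlap of the strongest peaks in 97.4%. In the 3 classes formed anew in this way, H3K4me3 was at 99.2%, 95.3% and 91.2%. Sham was at 12.8% of both and 19.5% of IL-4 only, and untreated BMDM at 11.3%, 2.79% and 11.4%. A fold of 4 or more gave 4701 in both and 856 IL-4 only, fewer than the 1112 infarct only, and region shares of 71.9% and 52.6%. Listed gene starts alone gave 1080 IL-4 only. Region shares were 37.2% and 28.5% with reciprocal overlap of 50%, 45.9% and 45.2% at equal list lengths, and 57.3% and 37.5% for q of 0.05 or less, a setting added after seeing the data; the IL-4 share was 39.7% on autosomes and 39.7% with peaks within 500 bp stitched. At equal list lengths 2031 genes were infarct only and 1132 IL-4 only, which turns their order. The rank correlation was 0.81 by fold, 0.70 by width, 0.83 for overlapping peaks and 0.83 in a 0.5 kb window. Summits lay within 200 bp in 76.9% of genes. In the 0.5 kb window H3K4me3 was at 94.9% of both, sham at 8.55%, 7.89% and 11.6%, and untreated BMDM at 7.42%, 3.55% and 6.19%. The causes were not tested.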
